A study of Mus musculus with 9 samples.

Results

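The 45 genes described here drive or mark the cell division cycle and were chosen by name, as a list of cyclins, cyclin-dependent kinases (CDKs) and their inhibitors, DNA replication factors and mitotic proteins. Of these 45 genes, 40 had at least 1 probe set (an exon-level unit of the array) whose platform annotation gives a single symbol, out of 14507 genes measured in all. Mki67, Ccnb1, Pcna, Rrm2 and Cenpf had no such probe set and were not analysed here, so the division marker Ki-67 itself is among the genes without a value. Tissue came from tail epidermis of adult wild-type female C57BL6/CBA mice with no treatment, cut by hand into sebaceous glands (SG), hair follicles (HF) and the interfollicular epidermis (IFE) between them. Dissected pieces of a compartment were pooled, and the series holds 3 biological replicates of each, hybridised to 9 exon arrays. Values are the deposited array intensities on a log2 scale, and a gene's value is the median over its probe sets. P-values therefore measure the spread between pooled dissections that the labels call biological replicates. Median intensity ran from 176 to 198 on the SG arrays, from 195 to 210 on the HF arrays and from 194 to 234 on the IFE arrays.

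Cells commit to division in G1, when cyclin D with CDK4 and cyclin E with CDK2 release the E2F factors that switch on replication genes. The MCM helicase is loaded on DNA and fires in S phase, and cyclin A and cyclin B with CDK1 then carry the cell through G2 and mitosis, where kinases, kinesins and checkpoint proteins part the chromosomes. In skin these genes are used by basal keratinocytes of the epidermis, by the matrix of a growing hair follicle and by the basal cells at the rim of the sebaceous gland, while the layers and glands that these cells feed have stopped dividing. In a bulk sample, fewer dividing cells and less of a transcript per cell cannot be told apart.

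Promoters of genes that peak in mitosis often hold a CHR element and a CCAAT box, and those of replication genes an E2F site. RefSeq windows on build GRCm38.p6, which run from 250 bases before to 50 bases after a gene's start, were found for 35 of the 45 genes. They were searched on both strands for the CHR letters TTTGAA, for CCAAT, and for the E2F cores TTCCCGC and TTTCGCG, and no match of 1 motif overlapped a match of another. The CHR letters occurred in 12 of 17 genes of the mitotic roles (70.6%) and in 2 of 12 replication and nucleotide genes (16.7%), against 20.2% of 27025 genes with a window. An E2F core occurred in 1 of the 17 mitotic genes (5.88%) and in 7 of the 12 replication and nucleotide genes (58.3%), against 6.15% of all genes with a window. CCAAT occurred in 88.2% of the mitotic genes and 75.0% of the replication and nucleotide genes, against 41.1% of all. The 5 windows printed here belong to the genes whose values set compartments or arrays apart in the results: Top2a, Prc1 and Tyms pass the test in a comparison, Ccnb2 differs strongly between SG arrays, and Mcm6 is a replication gene with an E2F core. Capitals mark the matches on either strand, and the Tyms window holds none of them.
Top2a (chr11:99024140-99024439, minus strand): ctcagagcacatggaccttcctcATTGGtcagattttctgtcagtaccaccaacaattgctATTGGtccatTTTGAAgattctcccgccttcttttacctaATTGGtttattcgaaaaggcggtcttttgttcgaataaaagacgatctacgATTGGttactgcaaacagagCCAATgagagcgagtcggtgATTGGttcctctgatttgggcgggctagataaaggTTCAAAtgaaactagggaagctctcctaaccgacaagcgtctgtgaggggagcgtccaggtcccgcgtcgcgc
Prc1 (chr7:80294201-80294500, plus strand): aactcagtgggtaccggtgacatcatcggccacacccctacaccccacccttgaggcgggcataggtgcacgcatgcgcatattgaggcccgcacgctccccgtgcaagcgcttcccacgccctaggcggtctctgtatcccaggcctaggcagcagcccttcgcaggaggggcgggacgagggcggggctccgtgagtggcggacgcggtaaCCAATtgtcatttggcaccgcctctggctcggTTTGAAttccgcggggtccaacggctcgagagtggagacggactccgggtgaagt
Ccnb2 (chr9:70421505-70421804, minus strand): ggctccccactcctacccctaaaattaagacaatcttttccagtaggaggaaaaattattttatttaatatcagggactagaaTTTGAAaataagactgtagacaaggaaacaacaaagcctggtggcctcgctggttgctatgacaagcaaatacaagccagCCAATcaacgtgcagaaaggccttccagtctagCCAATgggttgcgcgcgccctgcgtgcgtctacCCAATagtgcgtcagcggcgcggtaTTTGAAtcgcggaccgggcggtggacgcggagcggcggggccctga
Mcm6 (chr1:128359656-128359955, minus strand): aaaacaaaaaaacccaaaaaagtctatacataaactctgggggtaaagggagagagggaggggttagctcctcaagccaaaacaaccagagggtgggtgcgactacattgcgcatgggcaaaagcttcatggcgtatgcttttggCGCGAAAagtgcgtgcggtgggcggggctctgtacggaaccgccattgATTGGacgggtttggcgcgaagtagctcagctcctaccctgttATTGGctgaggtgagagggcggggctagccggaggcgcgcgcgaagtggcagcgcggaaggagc
Tyms (chr5:30073576-30073875, minus strand): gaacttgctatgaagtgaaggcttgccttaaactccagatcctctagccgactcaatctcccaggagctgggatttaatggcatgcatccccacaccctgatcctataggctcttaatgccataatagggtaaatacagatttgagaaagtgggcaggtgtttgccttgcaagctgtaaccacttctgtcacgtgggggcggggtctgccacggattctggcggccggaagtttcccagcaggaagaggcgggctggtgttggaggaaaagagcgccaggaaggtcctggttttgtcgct
Top2a, Prc1 and Ccnb2 carry both the CHR letters and CCAAT, with 2, 1 and 2 CHR matches. Prc1 has 2 windows, and the one not printed (chr7:80294226-80294525) also holds 1 CHR and 1 CCAAT match. Such a match describes the letters of the window and is no evidence that a factor binds there.

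Arrays of the same compartment differed from each other in these genes. SG replicate 3 was the highest of the 3 SG arrays for 34 of 40 cell cycle genes (85%), against 48.1% of all genes, and SG replicate 1 was the lowest for 27. IFE replicate 1 was the lowest IFE array for 36 of 40 (90%), against 53.9% of all genes. The median deviation of the 40 genes from their own mean over the 9 arrays was -0.37, -0.15 and 0.38 on SG replicates 1 to 3, -0.20, -0.16 and -0.08 on the HF arrays, and -0.13, 0.38 and 0.44 on the IFE arrays. On this scale SG replicate 3 lay with IFE replicates 2 and 3, IFE replicate 1 lay with the HF arrays, and the all-gene median stayed between -0.12 and 0.13 on every array. After quantile normalization, SG replicate 3 was still the highest SG array for 28 of the 40 genes and IFE replicate 1 the lowest IFE array for 25.

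**Figure D1:**
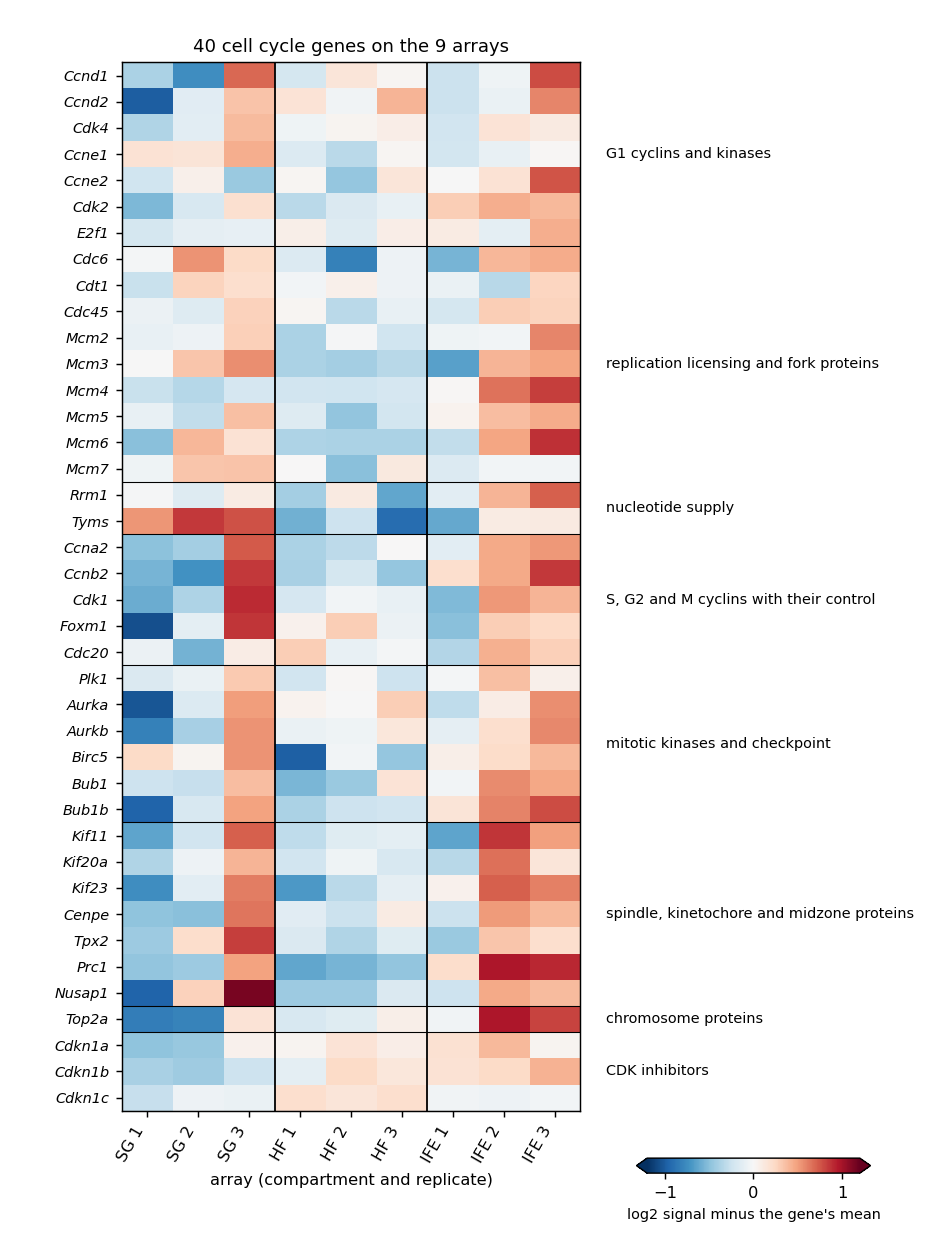
Heat map of the 40 measured cell cycle genes (rows, grouped by role) on the 9 arrays (columns), coloured by log2 signal minus the gene's mean over the arrays. SG replicate 3 and IFE replicates 2 and 3 are mostly red, SG replicate 1 is mostly blue, and the 3 HF arrays are pale.

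The 3 HF arrays were close to each other. The median SD of a cell cycle gene was 0.37 among SG arrays, 0.16 among HF arrays and 0.38 among IFE arrays (log2, n = 3 each), while for all genes it was 0.25, 0.18 and 0.24. Replicates spanned more than 1 log2 unit for 15 of 40 genes in SG (37.5%, against 10.4% of all genes), for 0 of 40 in HF (3.43% of all genes) and for 7 of 40 in IFE (17.5%, against 7.13%). Nusap1 (microtubule bundling at the spindle) had the widest SG span of the 40 genes, 2.10 log2 units, followed by Foxm1 (the transcription factor of G2 and M genes) with 1.91. These genes, like the others named for their span, were picked after their values were seen.

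Markers of the hair matrix, hair shaft and inner root sheath moved with the cell cycle genes among the SG arrays. Those of the resting follicle and bulge (Krt15, Lgr5, Lhx2, Sox9, Cd34, Fgf18, Tbx1 and Nfatc1) did not. For these, SG replicate 3 was the highest SG array for 1 of 8 genes, and median deviations were 0.46, 0.30 and 0.32 on SG replicates 1 to 3. SG replicate 3 was the highest SG array for 6 of 6 hair matrix genes (Msx2, Hoxc13, Dlx3, Lef1, Shh and Foxn1) and for 7 of 7 measured hair shaft and inner root sheath genes. The summed hair shaft and sheath intensity was 1254, 1647 and 12370 on SG replicates 1 to 3, 27791 to 47984 on the HF arrays and 584 to 652 on the IFE arrays. The hair matrix sum was 795, 1050 and 3195 on the SG arrays, 4259 to 6140 on the HF arrays and 1753 to 2195 on the IFE arrays. The matrix genes differed among themselves: Msx2 had 6.29, 7.64 and 9.93 log2 units on the SG arrays and 10.80 to 11.46 on the HF arrays, whereas Shh had 7.41, 7.56 and 8.67 on the SG arrays and 7.76 to 7.99 on the HF arrays. Lef1, at 8.33 on SG replicate 3, lay within its HF range of 7.89 to 8.45. Hoxc13 did not mark HF against IFE, with means of 9.15 in HF and 9.33 in IFE. On SG replicate 3 it had 8.89, below the IFE arrays at 8.94 to 9.63. Foxn1, with 9.25 to 9.50 on the HF arrays, had 8.606 on SG replicate 3, also below the IFE arrays at 8.614 to 8.743. The 5 measured melanocyte markers were also highest on SG replicate 3 among SG arrays, with median deviations of -0.21, 0.89 and 1.30, and the 10 sebocyte markers had 2.28, 2.49 and 1.76. Fibroblast and dermal papilla markers summed to 711, 879 and 1448 on the SG arrays, 1049 to 1161 on the HF arrays and 676 to 825 on the IFE arrays. The part of these cells in the values of SG replicate 3 was not tested.

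Basal keratinocyte markers (Krt5, Krt14, Trp63, Itga6, Itgb4 and Col17a1) had median deviations of -0.34, -0.17 and 0.06 on SG replicates 1 to 3, -0.38, -0.29 and -0.36 on the HF arrays, and 0.44, 0.56 and 0.71 on the IFE arrays. IFE replicate 1 was the lowest IFE array for 4 of 6 of them and, with 0.84 against 0.96 and 0.97, the lowest in suprabasal markers too, and the part of cell makeup in its low cell cycle values was not tested. The markers otherwise followed the titles: 10 of 10 sebocyte markers were called higher in SG than in IFE, and 7 of 7 hair shaft and sheath markers were called higher in HF than in IFE. Against IFE, 7 of the 10 sebocyte markers were also called higher in HF, and 4 of the 7 hair markers in SG. Between SG and HF, 10 of 10 sebocyte markers were called higher in SG and 7 of 7 hair markers lower. The array file names that the submitters gave name another compartment than the title for 9 of 9 arrays. Groups here follow the titles.

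**Figure D2:**
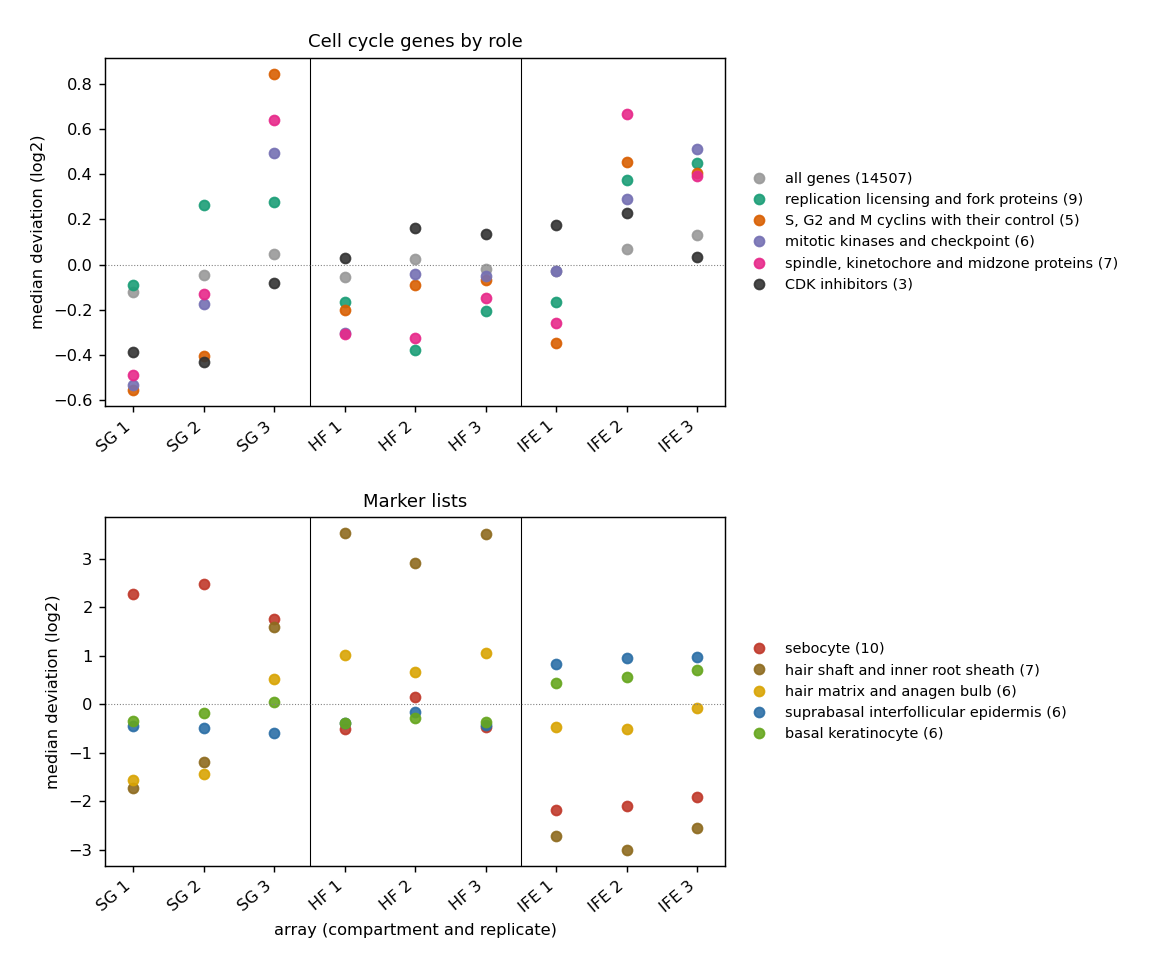
Median deviation (log2) of gene lists from each gene's mean, for each of the 9 arrays, with 1 point per list: cell cycle roles and all genes above, cell type markers below, on different vertical scales. Mitotic roles are high on SG replicate 3 and on IFE replicates 2 and 3, and hair shaft markers on SG replicate 3 lie between the other SG arrays and the HF arrays.

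Against IFE, SG had lower values for most cell cycle genes, and few differences exceeded the spread between replicates. In SG against IFE 32 of 40 genes lay lower and 8 higher, with a median log2 difference of -0.30, against -0.06 over all genes. A gene was called at an adjusted p under 0.05 (limma, Benjamini-Hochberg over 14507 genes) and a log2 difference of at least 1. On that rule 1 of 40 was lower in SG, where 6.96% of all genes were, and 0 of 40 were higher, where 2.54% were. At an unadjusted p under 0.05 the limma test gave 7 lower (17.5%) and 1 higher (2.5%), against 23.4% and 11.6% of all genes. Without the minimum difference, 4 were lower and 1 higher, against 15.8% and 6.07% of all genes. The 3 SG arrays lay wholly below the IFE arrays for 3 genes (Cdk2, Mcm4 and Cdkn1b) and wholly above for 2 (Ccne1 and Tyms), against 21.7% and 13.2% of all genes. The called share was below that of all genes. The replicate range (highest minus lowest array) of the more variable compartment exceeded the difference of means for 36 of 40 cell cycle genes (90%), against 74.6% of all genes.

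Against IFE, HF had lower values for 35 of 40 genes and higher values for 5, with a median of -0.35, against -0.07 over all genes. 1 of 40 was called lower in HF, where 3.36% of all genes were, and 0 were called higher, where 2.96% were. The limma test gave 12 lower and 0 higher at an unadjusted p under 0.05, which is 30% of the 40 genes, against 17% and 9.45% of all genes. After adjustment with no minimum difference, 2 were lower and 0 higher, against 7.25% and 4.81% of all genes. The HF arrays lay wholly below the IFE arrays for 9 genes (Cdk2, Mcm4, Mcm5, Mcm6, Ccnb2, Birc5, Bub1b, Kif23 and Prc1), where 19.3% of all genes did, and wholly above for Cdkn1c alone, where 13.5% did. This comparison shares the IFE arrays with the previous one.

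Between SG and HF, 25 genes lay higher in SG and 15 lower, with a median of 0.14, against -0.02 over all genes. 1 of 40 was called higher in SG, where 1.81% of all genes were, and 0 were called lower, where 3.3% were. At an unadjusted p under 0.05 limma gave 4 higher (10%) and 1 lower (2.5%), against 9.22% and 13.8% of all genes, and after adjustment with no minimum difference 1 was higher and 0 lower, against 3.26% and 6.2% of all genes. SG and HF arrays did not overlap for 5 genes higher in SG (Ccne1, Cdc6, Mcm3, Tyms and Birc5) and 2 lower (Cdkn1b and Cdkn1c), where 12.1% and 17.2% of all genes did so. With SG replicate 3 and HF replicate 2 left out, an alternative chosen after the data were seen, the median of the 40 genes was -0.12. An F test over the compartments called 4 of 40 genes (Mcm4, Tyms, Prc1 and Cdkn1b), against 24.5% of all genes.

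The scale of the arrays bears on these directions. Bringing all arrays to the same distribution by quantile normalization moved the all-gene median of SG against IFE to 0.16, and the 40 genes then split evenly, 20 higher and 20 lower. Relative to the all-gene median, the median of the cell cycle genes was -0.24 in SG against IFE, -0.28 in HF against IFE and 0.16 in SG against HF, and after quantile normalization it was -0.15, -0.30 and 0.16. The 95% interval of the difference lay within 1 log2 unit of 0 for 27 of 40 genes in SG against IFE, 23 in HF against IFE and 28 in SG against HF. The interval of every other gene reached past 1 in at least 1 direction, and these genes include the 3 with a call.

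**Figure D3:**
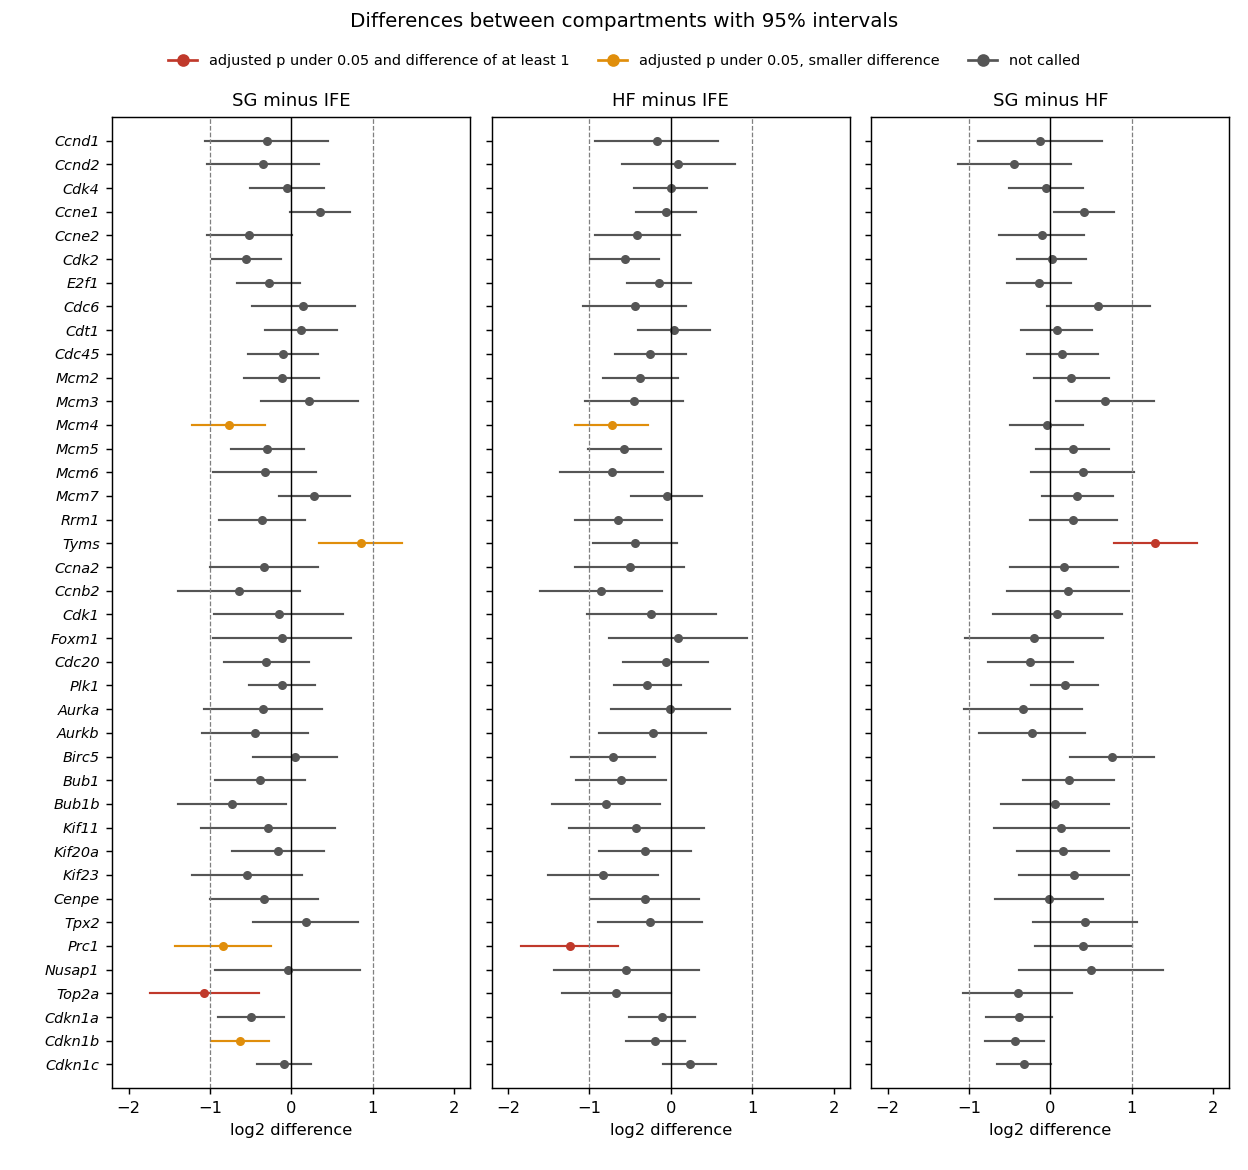
Log2 differences (points) with 95% intervals (lines) from the limma fit for the 40 genes in SG minus IFE, HF minus IFE and SG minus HF. The 3 called differences (red) are Top2a in SG minus IFE, Prc1 in HF minus IFE and Tyms in SG minus HF.

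The 7 G1 genes showed no call in any comparison. Ccnd1 (cyclin D1, a growth-factor sensor of G1) had 8.75, 8.39 and 9.82 log2 units in SG arrays, 8.92, 9.28 and 9.16 in HF arrays, and 8.88, 9.08 and 9.92 in IFE arrays. Ccnd2 (cyclin D2) had 8.85, 9.70 and 10.19 in SG arrays, 10.01, 9.80 and 10.25 in HF arrays, and 9.59, 9.76 and 10.43 in IFE arrays. Replicate 3 was the highest array for both cyclins in SG and in IFE, and all groups overlapped. Cdk2, the kinase partner of cyclins E and A, was the member of this role whose SG and HF arrays both lay below all IFE arrays: 6.91, 7.26 and 7.64 in SG, 7.13, 7.28 and 7.36 in HF, and 7.75, 7.89 and 7.84 in IFE. Its log2 difference was -0.55 ± 0.20 in SG (SE, adjusted p = 0.0640) and -0.57 ± 0.20 in HF (adjusted p = 0.0832), short of the threshold, and the mean over probe sets gave -0.31 in SG. Ccne1 (cyclin E1) had 6.73, 6.71 and 6.99 in SG arrays, 6.39, 6.23 and 6.57 in HF arrays, and 6.34, 6.46 and 6.57 in IFE arrays, so its SG arrays were the highest of the 9. The difference from IFE was 0.35 ± 0.17 (adjusted p = 0.160). Cdk4, Ccne2 and E2f1 had differences from IFE between -0.52 and 0.00026.

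Among replication factors, Mcm4 (a subunit of the MCM2-7 helicase) was lower in both appendages than in IFE. It had 7.00, 6.92 and 7.07 in SG arrays, 7.03, 7.03 and 7.06 in HF arrays, and 7.28, 7.92 and 8.10 in IFE arrays. SG and HF arrays lay within a narrow band, and every IFE array lay above it. The difference was -0.77 ± 0.21 in SG against IFE (adjusted p = 0.0198) and -0.72 ± 0.21 in HF against IFE (adjusted p = 0.0396), both under the minimum of 1. The adjusted p was under 0.05 in 16 of 20 alternatives for SG and in 12 of 20 for HF. Of its 20 probe sets, 19 were lower in SG and 20 lower in HF than in IFE.

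Mcm2, another helicase subunit, had 7.29, 7.32 and 7.67 in SG arrays, 7.00, 7.37 and 7.14 in HF arrays, and 7.32, 7.34 and 7.96 in IFE arrays. Its groups overlapped, with a difference of -0.12 ± 0.21 in SG and -0.37 ± 0.21 in HF against IFE. Mcm6 had 7.73, 8.62 and 8.39 in SG arrays, 7.85, 7.85 and 7.85 in HF arrays, and 7.93, 8.70 and 9.10 in IFE arrays. Its HF arrays were alike to within 0.01 and lay below all IFE arrays, while SG arrays spread over both ranges. The 9 measured genes of replication licensing and the fork (Cdc6, Cdt1, Cdc45 and 6 MCM subunits) ran from -0.77 to 0.28 in SG against IFE, with 5 lower and 4 higher, and from -0.73 to 0.04 in HF against IFE, with 8 lower and 1 higher. In SG against HF, 8 were higher and 1 lower, with a median of 0.28. With the mean over probe sets, the direction of Cdc6 turned in SG against IFE (0.15 to -0.26). So did that of Cdt1 in HF against IFE (0.04 to -0.14). Cdc6, which loads the helicase at origins, and Mcm3 had every SG array above every HF array, with differences of 0.59 ± 0.29 (adjusted p = 0.250) and 0.67 ± 0.27 (adjusted p = 0.161), and the mean over probe sets gave 0.38 for Cdc6.

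Tyms, thymidylate synthase, which makes the thymidine nucleotide for DNA synthesis, was higher in SG than in HF. It had 7.61, 7.92 and 7.84 in SG arrays, 6.50, 6.83 and 6.17 in HF arrays, and 6.46, 7.17 and 7.18 in IFE arrays. Every SG array lay above every HF and IFE array, and SG replicate 3 did not stand out. Tyms was 2.45-fold higher in SG than in HF (log2 1.29 ± 0.24, adjusted p = 0.00515) and 1.80-fold higher in SG than in IFE (log2 0.85 ± 0.24, adjusted p = 0.0228), which is under the minimum of 1. The SG against IFE value was 0.42 (adjusted p = 0.0903) with the mean over probe sets, and 4 of 6 probe sets were higher. In HF against IFE the Tyms difference was -0.44 ± 0.24 (adjusted p = 0.262), with 6 of 6 probe sets lower. The mean over probe sets gave -0.56 there (adjusted p = 0.0483), and the brightest probe set -1.22. Over 20 alternatives the SG against HF difference ran from 0.98 to 2.07, with an adjusted p under 0.05 in all 20. The 2.07 came from the brightest probe set, which had 0.85 in SG against IFE. Tyms is measured by 6 probe sets, of which 5 were higher in SG than in HF, and their mean in place of their median gave 0.98. Rrm1, the large subunit of ribonucleotide reductase, lay lower in SG (-0.36 ± 0.24) and in HF (-0.64 ± 0.24) than in IFE, with overlapping arrays.

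**Figure D4:**
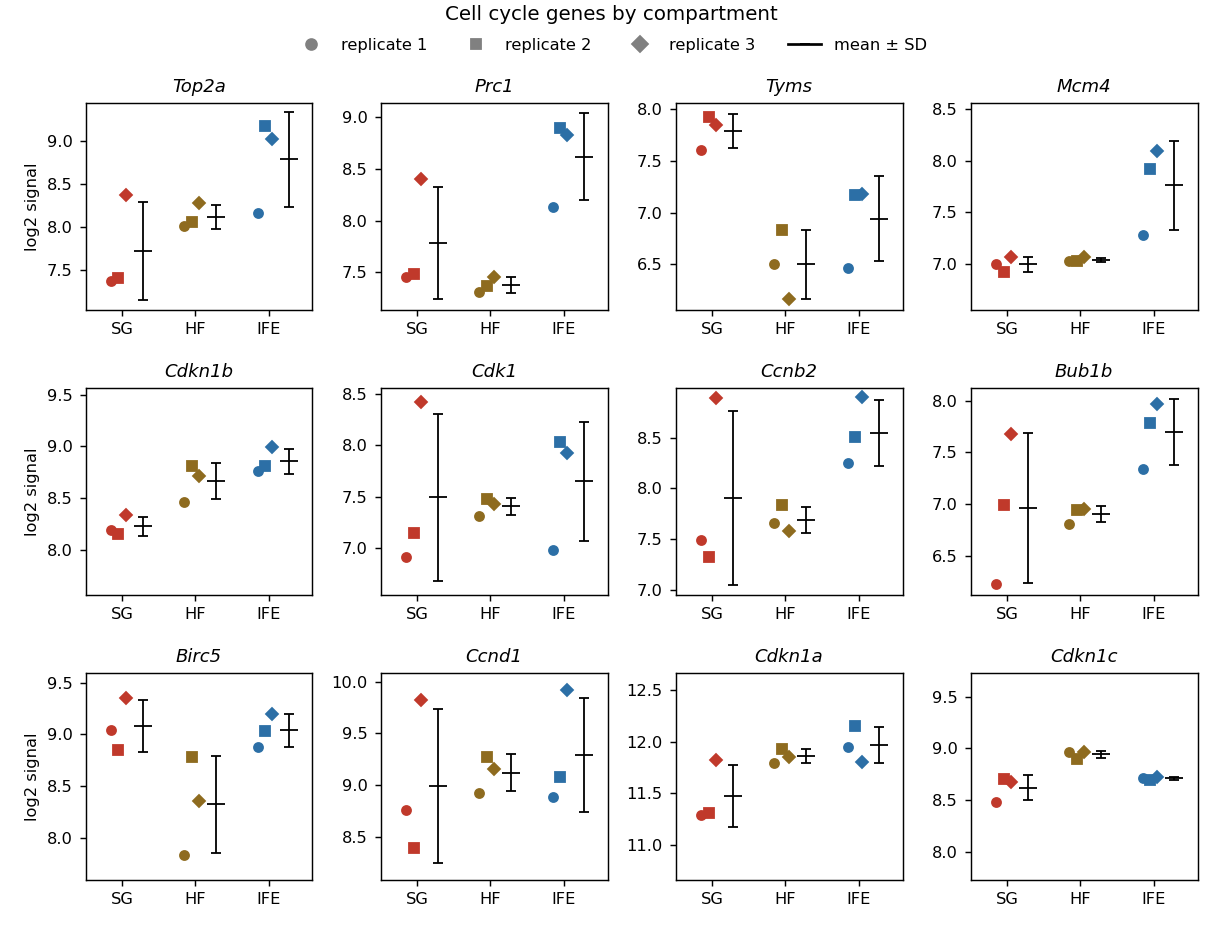
Log2 signal of 12 cell cycle genes on each array (points, with a shape for each replicate number) beside the mean ± SD of the compartment (n = 3), with a vertical scale for each gene. SG replicate 3 stands above the other SG arrays for Top2a, Prc1, Cdk1, Ccnb2 and Bub1b, and the Tyms points of SG lie above all others.

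The cyclins of S phase and mitosis and their regulators had no call in any comparison. Cdk1, the kinase that starts mitosis, had 6.92, 7.15 and 8.42 in SG arrays, 7.32, 7.48 and 7.43 in HF arrays, and 6.99, 8.03 and 7.92 in IFE arrays. The highest value of the 9 arrays was that of SG replicate 3, and the lowest were those of SG replicate 1 and IFE replicate 1. The difference was -0.15 ± 0.36 in SG against IFE (adjusted p = 0.796), with a 95% interval from -0.95 to 0.64, and -0.31 with the mean over probe sets. Ccnb2 (cyclin B2, a CDK1 partner) had 7.49, 7.32 and 8.89 in SG arrays, 7.66, 7.83 and 7.58 in HF arrays, and 8.25, 8.50 and 8.90 in IFE arrays. SG replicate 3 reached the highest IFE value, the other SG arrays lay below all IFE arrays, and so did the 3 HF arrays. Its difference was -0.65 ± 0.34 in SG (adjusted p = 0.206) and -0.86 ± 0.34 in HF (adjusted p = 0.134), and without SG replicate 3 the SG difference was -1.14, past the threshold. These sizes rest on the median over probe sets: the mean gave -0.22 in SG and -0.089 in HF, and 7 of 11 probe sets were lower in each. Foxm1 had 5.81, 6.76 and 7.73 in SG arrays, 6.93, 7.17 and 6.80 in HF arrays, and 6.37, 7.17 and 7.10 in IFE arrays. Its difference from IFE was -0.12 in SG and 0.09 in HF, but 8 of 9 probe sets were lower in each, with medians of single probe sets of -0.74 and -0.51. The brightest Foxm1 probe set gave -1.18 in SG against IFE (adjusted p = 0.0264). Ccna2 (cyclin A2) and Cdc20 (activator of the anaphase-promoting complex) lay lower in both appendages than in IFE, with differences from -0.51 to -0.06. For Cdc20 in HF the direction turned with the mean over probe sets (-0.06 to 0.03), and 1 of its 3 probe sets was higher.

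The mitotic kinases and checkpoint genes also had no call. For all 6 of them (Plk1, Aurka, Aurkb, Birc5, Bub1 and Bub1b) SG replicate 3 was the highest SG array and IFE replicate 1 the lowest IFE array. Differences ran from -0.73 to 0.04 in SG against IFE and from -0.80 to -0.004 in HF against IFE. Bub1b (BubR1, a checkpoint kinase homolog that delays anaphase) had 6.22, 6.99 and 7.67 in SG arrays, 6.81, 6.94 and 6.95 in HF arrays, and 7.34, 7.79 and 7.96 in IFE arrays. HF arrays lay below all IFE arrays, whereas SG replicate 3 entered the IFE range. The difference was -0.73 ± 0.30 in SG (adjusted p = 0.108) and -0.80 ± 0.30 in HF (adjusted p = 0.117). Of its 22 probe sets, 19 were lower in SG, but the brightest was higher in SG, by 1.44 (adjusted p = 0.00335).

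Birc5 (survivin, of the chromosomal passenger complex with Aurkb) had 9.04, 8.85 and 9.35 in SG arrays, 7.84, 8.78 and 8.35 in HF arrays, and 8.88, 9.03 and 9.20 in IFE arrays. SG and IFE shared a range, and every HF array lay below both. The difference was 0.76 ± 0.24 in SG against HF (adjusted p = 0.0696) and -0.72 ± 0.24 in HF against IFE (adjusted p = 0.0729). All 7 of its probe sets were higher in SG than in HF, but the mean over them gave 0.42 (adjusted p = 0.342). All 7 were lower in HF than in IFE, and 6 of 7 were lower in SG than in IFE, where the median gave 0.04 and the mean -0.39.

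Prc1, which bundles the antiparallel microtubules of the spindle midzone before the cell divides, was lower in HF than in IFE. It had 7.45, 7.49 and 8.41 in SG arrays, 7.31, 7.36 and 7.46 in HF arrays, and 8.14, 8.89 and 8.83 in IFE arrays. All HF arrays lay below all IFE arrays, and SG replicate 3 alone among SG arrays lay within the IFE range. Prc1 was 2.37-fold lower in HF than in IFE (log2 -1.24 ± 0.27, adjusted p = 0.0107), with 12 of 12 probe sets lower. Leaving out IFE replicate 2 or IFE replicate 3 gave -1.11 (adjusted p = 0.0581) and -1.14 (adjusted p = 0.0511), which ended the call, as did the mean over probe sets (-0.998) and the brightest probe set (-0.72). In SG against IFE the difference was -0.84 ± 0.27 (adjusted p = 0.0461), and without SG replicate 3 it was -1.15, but the adjusted p was under 0.05 in only 9 of 21 alternatives. The mean over probe sets gave -0.54 there (adjusted p = 0.140), with 11 of 12 lower.

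The other 6 measured spindle, kinetochore and midzone genes had differences from IFE between -0.54 and 0.17 in SG and between -0.83 and -0.25 in HF, none of them called. They are the kinesins Kif11 (spindle pole separation), Kif20a and Kif23 (cytokinesis), the kinetochore kinesin Cenpe, and the spindle assembly factors Tpx2 and Nusap1. Some sizes rest on the median over probe sets. In SG against IFE, Kif11 had -0.29 with it, -0.71 with the mean and -1.10 with the brightest probe set. The direction turned with the mean for Tpx2 (0.17 to -0.06) and Nusap1 (-0.04 to 0.07). For all 7 genes of this role, SG replicate 3 was the highest SG array, IFE replicate 2 the highest IFE array and IFE replicate 1 the lowest. Nusap1 had 6.64, 7.88 and 8.75 in SG arrays, 7.16, 7.17 and 7.43 in HF arrays, and 7.35, 8.06 and 7.98 in IFE arrays. Its SG arrays covered the whole range of the other 6 arrays.

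Top2a, DNA topoisomerase II alpha, which untangles sister chromosomes and is made in dividing cells, was lower in SG than in IFE. It had 7.38, 7.41 and 8.38 in SG arrays, 8.02, 8.06 and 8.28 in HF arrays, and 8.16, 9.18 and 9.02 in IFE arrays. SG replicate 3 lay above IFE replicate 1, so the groups overlapped, and the HF arrays lay above SG replicates 1 and 2 and below SG replicate 3. Top2a was 2.10-fold lower in SG than in IFE (log2 -1.07 ± 0.31, adjusted p = 0.0263), with 35 of 37 probe sets lower and a median over single probe sets of -1.22. The call ended when SG replicate 1, SG replicate 2, IFE replicate 2 or IFE replicate 3 was left out (-0.87 to -0.95, adjusted p = 0.0908 to 0.117), and the difference was -1.40 without SG replicate 3. Quantile normalization gave -0.76 (adjusted p = 0.0507) and median centring -0.83 (adjusted p = 0.0328), short of the minimum of 1. In HF the difference from IFE was -0.67 ± 0.31 (adjusted p = 0.188), with 36 of 37 probe sets lower.

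**Figure D5:**
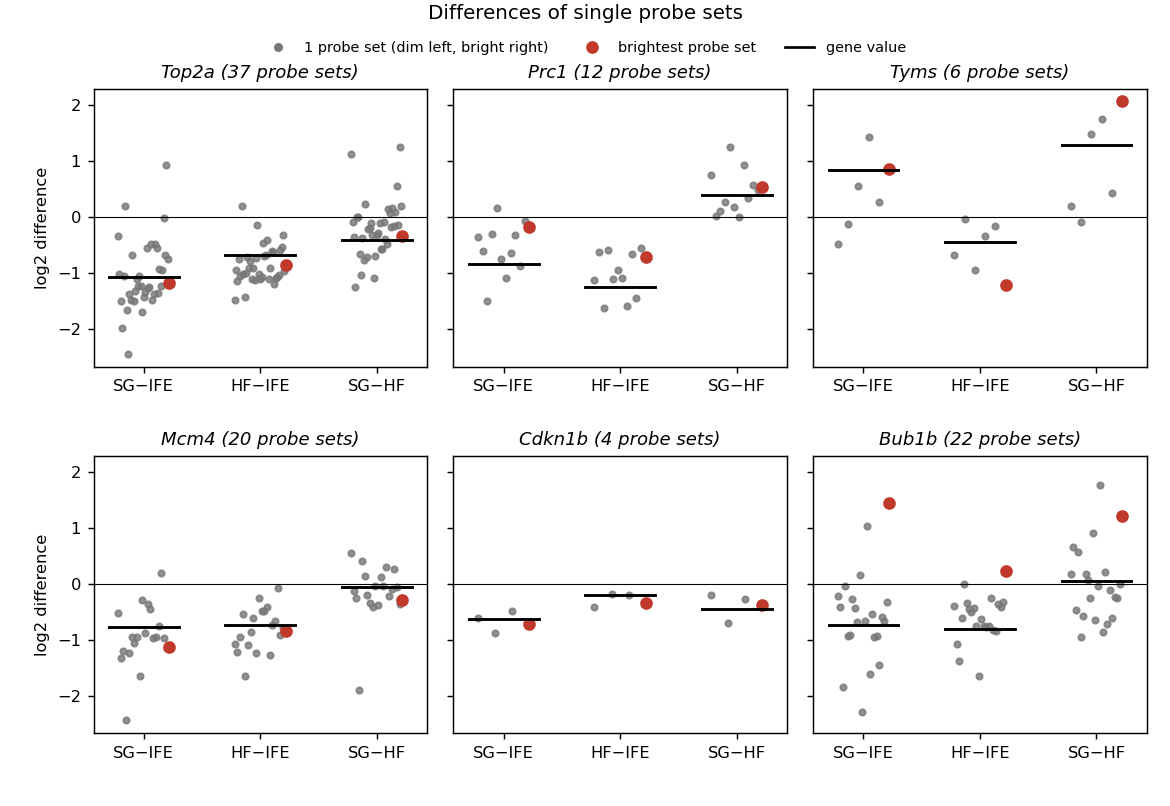
Log2 difference of each probe set (grey points, brightest in red) beside the gene value (bar) for 6 genes in SG minus IFE, HF minus IFE and SG minus HF. Of 37 Top2a probe sets 35 lie below 0 in SG minus IFE, and the brightest Bub1b probe set lies above 0 in SG minus IFE while 19 of 22 lie below.

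The 3 CDK inhibitors, which hold the kinases back, had no call past the minimum difference, and all 3 had lower median values in SG than in HF. Cdkn1b (p27, an inhibitor of cyclin E with CDK2) had 8.19, 8.15 and 8.33 in SG arrays, 8.47, 8.81 and 8.72 in HF arrays, and 8.76, 8.81 and 9.00 in IFE arrays. Every SG array lay below every HF and IFE array. The difference was -0.63 ± 0.17 in SG against IFE (adjusted p = 0.0180), under the minimum of 1, and -0.44 ± 0.17 in SG against HF (adjusted p = 0.132), with 4 of 4 probe sets lower in both. Cdkn1a (p21, the p53 target) had 11.29, 11.31 and 11.82 in SG arrays, 11.79, 11.93 and 11.85 in HF arrays, and 11.95, 12.15 and 11.80 in IFE arrays. SG replicates 1 and 2 were the lowest of the 9 arrays, and the difference from IFE was -0.49 ± 0.19 (adjusted p = 0.0803). Cdkn1c (p57) had 8.48, 8.70 and 8.68 in SG arrays, 8.96, 8.90 and 8.96 in HF arrays, and 8.71, 8.70 and 8.72 in IFE arrays. HF arrays were the highest, by 0.23 ± 0.15 over IFE (adjusted p = 0.361), with 4 of 4 probe sets higher. In SG against IFE the direction of Cdkn1c turned with the summary, at -0.09 for the median over probe sets and 0.19 for their mean, with 3 of 4 probe sets higher.

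Other genes of the same pathway were counted as well. Of 22 further replication genes, 1 was called lower in SG than in IFE, 0 in HF against IFE and 1 lower in SG than in HF. Of all genes, 6.96%, 3.36% and 3.3% were called lower in these comparisons. In each of them 0 of the 22 were called higher, where 2.54%, 2.96% and 1.81% of all genes were. The medians of the list were -0.11, -0.33 and 0.26, against -0.06, -0.07 and -0.02 over all genes. The gene lower in SG was Dbf4 (the activator of the origin-firing kinase Cdc7), with differences of -1.35 ± 0.28 against IFE (adjusted p = 0.00481) and -1.50 ± 0.28 against HF (adjusted p = 0.00539), and its SG arrays lay below all others. In HF against IFE the smallest p belonged to Prim1 (primase, -0.76 ± 0.23, adjusted p = 0.0499) and Pola1 (DNA polymerase alpha, -0.74 ± 0.23, adjusted p = 0.0617). At an unadjusted p under 0.05 limma gave 4 lower (18.2%) and 0 higher of the 22 there, against 17% and 9.45% of all genes. IFE replicate 1 was the lowest IFE array for 22 of 22 of these genes.

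Of 37 further mitosis genes, 1 was called lower in SG than in IFE, 3 lower in HF than in IFE and 2 higher in SG than in HF. Of all genes, 6.96%, 3.36% and 1.81% were called in these directions. In each opposite direction 0 were called, where 2.54%, 2.96% and 3.3% of all genes were. The medians of the list were -0.32, -0.46 and 0.12, against -0.06, -0.07 and -0.02 over all genes. At an unadjusted p under 0.05 limma gave 8 lower (21.6%) and 1 higher (2.7%) in SG against IFE, against 23.4% and 11.6% of all genes. In HF against IFE it gave 10 lower (27%) and 0 higher, against 17% and 9.45%. In SG against HF it gave 4 higher (10.8%) and 0 lower, against 9.22% and 13.8%. Anln (anillin, of the cleavage furrow) was lower in both appendages, with differences from IFE of -1.04 ± 0.30 in SG (adjusted p = 0.0275) and -1.44 ± 0.30 in HF (adjusted p = 0.00797). In HF, Ckap2 (a spindle protein) fell by 1.62 and Racgap1 (a partner of Kif23 at the midzone) by 1.12 on the log2 scale against IFE. The kinetochore genes Ndc80 and Spc24 were higher in SG than in HF, by 1.40 ± 0.35 (adjusted p = 0.0260) and 1.29 ± 0.34 (adjusted p = 0.0331). SG replicate 3 was the highest SG array for 35 of these 37 genes (94.6%), against 48.1% of all genes.

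Further regulators of G1 and of arrest were counted in the same way. Of 14 further G1 and checkpoint regulators, 4 were called lower and 0 higher in SG against IFE, where 6.96% and 2.54% of all genes were. At an unadjusted p under 0.05 limma gave 8 lower and 1 higher there, against 23.4% and 11.6% of all genes. In HF against IFE 3 were called lower and 1 higher, where 3.36% and 2.96% of all genes were. In SG against HF 0 were called, where 3.3% of all genes were lower and 1.81% higher. Unadjusted, 3 were lower (21.4%) and 0 higher there, against 13.8% and 9.22% of all genes. Cdk6, a kinase partner of the D cyclins, had 7.95, 7.91 and 7.98 in SG arrays, 7.68, 8.60 and 8.13 in HF arrays, and 10.38, 10.28 and 9.96 in IFE arrays. All IFE arrays lay above all others, with differences of -2.26 ± 0.22 in SG (adjusted p = 5.26e-05) and -2.07 ± 0.22 in HF (adjusted p = 0.000123). Rb1, the retinoblastoma protein that restrains E2F, was lower in SG than in IFE (-1.56 ± 0.22, adjusted p = 0.000488). Myc, a transcription factor of cell growth, was called lower in both appendages (-1.02 in SG and -1.14 in HF against IFE), and so was Rbl1 (p107, of the retinoblastoma family), with -1.06 in SG and -1.04 in HF. E2f7, a repressor among the E2F factors, was higher in HF than in IFE, by 1.16 ± 0.18 (adjusted p = 0.00138), and in SG against HF it had -0.87 (adjusted p = 0.0100) and Rb1 -0.90 (adjusted p = 0.0225), both under the minimum of 1.

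Of 9 measured genes of cell cycle arrest and its control, 5 were called lower in SG than in IFE. In HF against IFE 2 were called lower, and in SG against HF 3 were. Of all genes, 6.96%, 3.36% and 3.3% were called lower in these comparisons. In each of them 0 were called higher, where 2.54%, 2.96% and 1.81% of all genes were. At an unadjusted p under 0.05 limma gave 7, 5 and 4 lower, against 23.4%, 17% and 13.8% of all genes. It gave 0, 0 and 1 higher, against 11.6%, 9.45% and 9.22%. The 5 called lower in SG than in IFE include Mdm2, which does not itself arrest the cycle, so they are not a count of arrest genes alone. The medians of the 9 genes were -1.13, -0.61 and -0.28, against -0.06, -0.07 and -0.02 over all genes. Btg2, an antiproliferative p53 target, had 8.71, 8.56 and 8.50 in SG arrays, 9.56, 9.91 and 9.68 in HF arrays, and 11.09, 11.18 and 10.58 in IFE arrays, so that the 3 compartments formed 3 separate levels. Its differences were -2.36 ± 0.19 in SG against IFE (adjusted p = 1.45e-05), -1.23 ± 0.19 in HF against IFE (adjusted p = 0.00149) and -1.13 ± 0.19 in SG against HF (adjusted p = 0.00374). Tob1, of the same family, was lower in SG than in IFE (-1.25) and than in HF (-1.39). Mdm2 (the p53 ligase) and Sesn1 (sestrin 1) were lower in SG than in IFE, with differences of -1.13 and -1.21, and Sesn1 was also lower in SG than in HF (-1.05). Cdkn2c (p18, an inhibitor of CDK4 and CDK6) was lower in HF than in IFE (-1.21).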

How the data were processed

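The authors deposited linear intensities, 1 for each probe set on each array; RMA, Affymetrix Power Tools and build mm9 are named in the submitters' processing notes, without versions. No detection calls were used, so signal over background is unknown. The log2 of each of 154736 probe sets was taken with no pseudocount. Platform annotation gave 1 symbol to 146964 probe sets, several to 1060 and none to 6712, and only the first of these were used. Each gene was summarised by the median over its probe sets (median 8 per gene). Old symbols were updated through RefSeq (GRCm38) for 1754 genes, so Cdc45 and Cdk1 stand under older symbols on the array.

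The 9 arrays entered a single linear model (limma 3.58.1, R 4.3.3) with a mean per compartment, then eBayes, with Benjamini-Hochberg adjustment over 14507 genes, and the 3 comparisons share the fit. The number of arrays limits precision: the median SE of a difference was 0.207 over all genes and 0.256 over the 40 cell cycle genes. The code was tested on simulated data.

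Genes and lists were chosen with earlier results of these data known. Values on every array are given for genes called in any comparison or by the F test and for Top2a, Cdk1, Mcm2, Ccnd1, Ccnd2 and the Cdkn1 genes. Of each wider list, called genes with the smallest p are named, up to 4 per comparison, and up to 2 with the smallest p where none was called. Cdk2, Ccne1, Mcm6, Ccnb2, Foxm1, Bub1b, Birc5 and Nusap1 were added after their values were seen. Promoter windows came from RefSeq. Alternatives changed scaling, probe-set summary, filter, weights, block, samples and threshold.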

Additional observations from a re-analysis of the deposited data

How the results depend on the processing

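Of 120 pairs of a cell cycle gene and a comparison under 21 alternatives, 2478 values could be computed: 2438 kept direction and side of the threshold, 27 gained a call, 12 lost it and 1 turned. That 1 was Bub1b in SG against IFE, at 1.442 with its brightest probe set. Counts of cell cycle genes called moved as follows; unless a value shows it, the cause was not tested. In SG against IFE, 1 gene higher in SG (main 0) resulted from quantile normalization, median centring, the brightest probe set, no minimum difference and a minimum of 0.5. Genes lower in SG (main 1) became 0 with quantile normalization, median centring or only the groups compared, 3 with the brightest probe set, 2 with array weights, 4 with either looser threshold, and 4 with SG replicate 3 and HF replicate 2 left out, which was chosen after seeing the data. In HF against IFE, genes lower in HF (main 1) became 0 with the mean over probe sets and 2 with array weights or either looser threshold. In SG against HF, genes higher in SG (main 1) became 0 with the mean over probe sets or without the dimmer 50% of genes, which drops Tyms, and 2 with the brightest probe set. The F test (main 4) gave 9 with the brightest probe set, 14 with array weights, 9 with the replicate block and 7 without the 2 arrays named. Leaving out each array in turn gave 0 to 4 genes lower in SG than in IFE (4 without SG replicate 3, 3 without IFE replicate 1, and 0 without SG replicate 1, SG replicate 2, IFE replicate 2 or IFE replicate 3), 0 to 2 lower in HF than in IFE (2 without IFE replicate 1, 0 without IFE replicate 2 or 3), 1 to 1 higher in SG than in HF, and 1 to 11 by the F test (11 without SG replicate 3, 9 without IFE replicate 1, 2 without SG replicate 2 or HF replicate 3, 1 without IFE replicate 2 or 3). Counts higher in HF than in IFE and lower in SG than in HF were 0 in all alternatives run.

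Same-numbered arrays correlated at -0.0188 to 0.225 in their deviations from compartment means over all genes. Replicate 1 was the lowest array for 27, 18 and 36 of the 40 cell cycle genes in SG, HF and IFE. For all genes these shares were 45.8%, 44.2% and 53.9%. It also had the lowest median intensity in each compartment. Whether same-numbered arrays share a batch was not tested. The replicate block changed the F count from 4 to 9 and no pairwise call of a cell cycle gene.

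Over all genes, SG against IFE gave 368 higher and 1009 lower; these were 609 and 476 with quantile normalization, 645 and 572 with median centring, 880 and 2291 without a minimum difference and 871 and 2283 at 0.5, and the higher count was 194 without dim genes and 591 with the brightest probe set. HF against IFE gave 429 and 487, 698 and 1052 under either looser threshold, 228 higher without dim genes and 734 lower without IFE replicate 1. SG against HF gave 262 and 479, 473 and 900 under either looser threshold, and 403 higher with quantile normalization. The F test gave 3548, 5890 with array weights and 2305 without IFE replicate 2. The share of called genes that were higher moved with scaling: 26.7% in SG against IFE, 56.1% with quantile normalization and 53% with centring; 46.8%, 58.2% and 56.9% in HF against IFE; 35.4%, 50.1% and 50.1% in SG against HF.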
